A study of Mus musculus with 6 samples.

Results

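The C/EBP genes encode the CCAAT/enhancer binding proteins, and the 6 genes Cebpa, Cebpb, Cebpd, Cebpe, Cebpg and Cebpz were looked up by symbol in a table of 17924 genes. Of these, 5 had a row and 5 passed the filter on low values, while Cebpe was not analysed here. The rule for membership is the gene symbol. RNA-seq had been performed on fibroblasts from the dorsal dermis of newborn (P0) C57BL/6J mice that were kept for 14 days in adipocyte differentiation medium. The 3 control cultures (CTL) came from mice with a Pdgfra-Cre transgene and either wild-type Nelfb or 1 floxed allele (Nelfb wt/wt or Nelfb fl/wt), and the 3 deleted cultures (Nelfb-/-, labelled Nelfb KO) came from Nelfb fl/fl Pdgfra-Cre+ mice. All 6 libraries therefore carried the Cre, which the Pdgfra promoter drives in fibroblasts and fat cell precursors and not in every cell of the dermis. The labels do not give which CTL culture had which of the control genotypes, nor whether a culture pooled several pups, so that p-values measure the spread between these cultures.

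C/EBP proteins of the bZIP class bind DNA as dimers that they form with each other or with related factors. In the textbook order of fat cell formation, Cebpb and Cebpd come on early after the adipogenic stimulus and are followed by Cebpa and by Pparg, the nuclear receptor that drives the adipocyte program, and the last pair then maintain each other. Cebpg lacks a strong activation domain and acts mostly as a dimer partner, Cebpe is a factor of granulocytes, and Cebpz is a nucleolar protein of ribosome assembly that shares the CCAAT name but not the bZIP domain.

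Cebpa, Cebpb and Cebpd are single-exon genes. In GENCODE (vM21, GRCm38, the mm10 build of the files) Cebpa lies at chr7:35119293-35121928 on the + strand, Cebpb at chr2:167688915-167690418 (+) and Cebpd at chr16:15887286-15891031 (+). Cebpg has 3 exon blocks at chr7:35046422-35056573 on the - strand and faces away from Cebpa, its neighbour 62.7 kb along the chromosome. Cebpz has 16 exon blocks at chr17:78919006-78937066 (-). The 250 bases before the start site are shown for the members with an entry in the RefSeq promoter table (GRCm38.p6). NELF, the complex that Nelfb belongs to, acts on RNA polymerase II just after it leaves such sites, and the bases after the start are not shown. The windows are chr7:35119043-35119292 for Cebpa, chr2:167688665-167688914 for Cebpb and chr7:35056567-35056816 for Cebpg, each written 5′ to 3′ on the strand of the gene, and Cebpd, Cebpe and Cebpz had no entry.
Cebpa: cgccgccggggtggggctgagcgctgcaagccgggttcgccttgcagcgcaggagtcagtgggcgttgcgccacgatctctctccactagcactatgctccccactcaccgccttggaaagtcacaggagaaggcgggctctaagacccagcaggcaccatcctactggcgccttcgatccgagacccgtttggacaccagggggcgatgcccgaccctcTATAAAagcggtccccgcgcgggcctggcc
Cebpb: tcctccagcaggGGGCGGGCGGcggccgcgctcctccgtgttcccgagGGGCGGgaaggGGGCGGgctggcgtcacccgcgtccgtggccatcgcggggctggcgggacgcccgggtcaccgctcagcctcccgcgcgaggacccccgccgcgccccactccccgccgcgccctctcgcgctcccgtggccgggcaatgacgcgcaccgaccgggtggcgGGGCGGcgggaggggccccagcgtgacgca
Cebpg: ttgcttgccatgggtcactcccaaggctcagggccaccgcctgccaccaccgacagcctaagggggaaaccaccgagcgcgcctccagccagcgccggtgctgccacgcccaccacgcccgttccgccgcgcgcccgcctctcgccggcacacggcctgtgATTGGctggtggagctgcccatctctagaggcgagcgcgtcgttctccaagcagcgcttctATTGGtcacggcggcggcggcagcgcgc
Capitals mark matches on either strand to 4 motifs. These were the letters TATAAA for the TATA box, the letters GGGCGG, which Sp1 is known to bind, for the GC box, the letters CCAAT for the box of that name, and the letters TTGCNNAA for the C/EBP motif. The Cebpa window held 1 TATA box that began 30 bases before the start. The Cebpb window held 5 GC boxes, of which the first pair overlap, and the one nearest to the start also began at 30 bases. The Cebpg window held 2 CCAAT boxes, both on the opposite strand, and none of the 3 windows held the letters of the C/EBP motif. Of 32851 windows of the same length in the RefSeq table, 12.4% held the TATA box, 32.7% the GC box, 33.8% the CCAAT box and 9.56% the C/EBP motif. The 3 windows differed in base composition, with a GC content of 66.4% for Cebpa, 81.6% for Cebpb and 70.8% for Cebpg against a median of 52.4% over the table.

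The depth of the libraries on the listed genes, read from the value of a single read, was between 17.2 M and 29.4 M reads (M, 1e+06). Nelfb itself was at 17.3, 19.6 and 22.3 CPM (reads per 1e+06 reads of the library) in CTL and at 5.50, 3.90 and 5.55 CPM after deletion. It fell by 1.99 ± 0.22 (SE) on the log2 scale (adjusted p = 0.0050 in limma), and the groups did not overlap. The adipocyte markers Adipoq (488 to 1857 CPM), Fabp4 (4571 to 17827 CPM) and Plin1 (286 to 1196 CPM) were present in all 6 libraries, as the label of the cells says. CTL replicate 3 and Nelfb-/- replicate 1 stood apart from the other 2 libraries of their group on the second principal component, which held 27.7% of the variance, and results that rest on them are given with and without them. In bulk samples, fewer cells of a type and less RNA per cell cannot be told apart.

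In these cultures no C/EBP gene passed the threshold (limma, adjusted p of at most 0.05 and at least a 2-fold change) between CTL and Nelfb-/- cells. Of the 5 members tested, 0 were called, where 11.2% of the 16251 genes tested were called, and 0 passed the adjusted p alone, where 15.8% of all genes did. At an unadjusted p under 0.05 the count was 1 of 5 (Cebpb), against 32.5% of all genes. With any 1 library left out 0 members were called, and Cebpb alone passed the adjusted p, without Nelfb-/- replicate 1. The fitted difference was below 0 for 4 of the 5 members, against 45.4% of all genes, and the median over the members was -0.29 on the log2 scale against 0.07 over all genes. The level of Cebpg was lower in each Nelfb-/- library than in each CTL library, while the groups overlapped for the other 4 members, and 38.1% of all genes had groups that did not overlap.

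**Figure D1:**
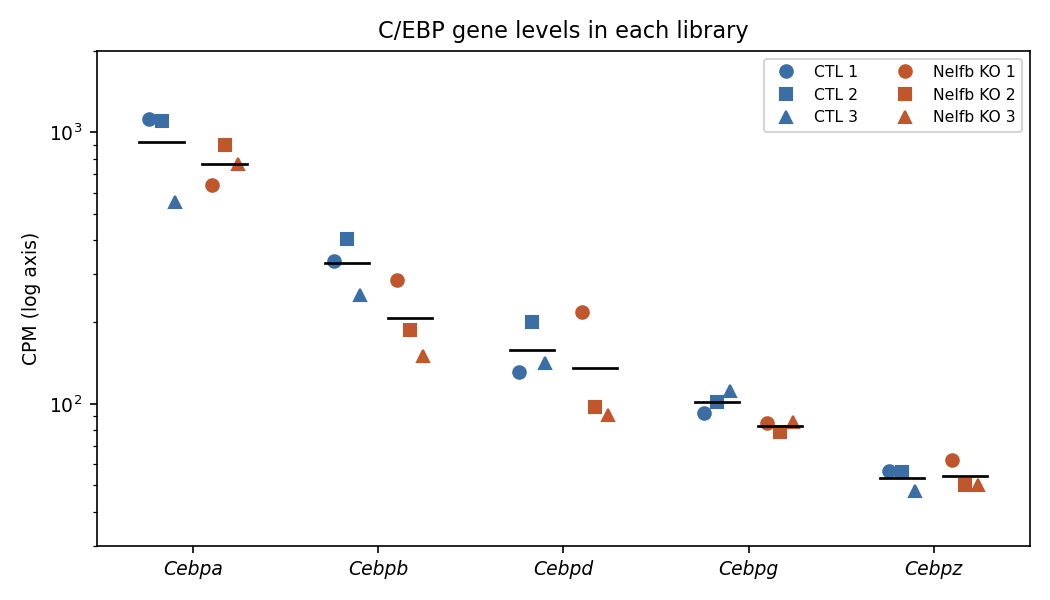
Level of each C/EBP gene in CPM (log axis) in the 3 CTL and the 3 Nelfb-/- libraries (Nelfb KO), with a marker shape for each replicate number and a line at each group mean. Cebpa is the highest member in every library, and only for Cebpg do the 3 Nelfb-/- values (78.8 to 85.5 CPM) all lie under the 3 CTL values (92.2 to 111 CPM).

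Cebpa, the factor of the late phase that is needed to form white fat cells, was the most abundant member. Its level was 1125, 1098 and 552 CPM in the 3 CTL libraries and 640, 898 and 765 CPM in the 3 Nelfb-/- libraries. The lowest value was that of CTL replicate 3, so that all 3 Nelfb-/- values lay between the CTL extremes and the groups overlapped. The mean was 925 ± 323 CPM (SD, n = 3) in CTL and 768 ± 129 CPM (SD, n = 3) in Nelfb-/- cells. The fitted log2 fold change was -0.21 with an SE of 0.33 (adjusted p = 0.695 in limma), with a 95% confidence interval from -0.998 to 0.57. On the linear scale this interval runs from 0.501 to 1.49 times the CTL level. Leaving out CTL replicate 3 gave -0.55 (adjusted p = 0.115 in limma) and leaving out CTL replicate 1 gave -0.03 (adjusted p = 0.969). Without Nelfb-/- replicate 1 it was -0.09 (adjusted p = 0.878 in limma), so that the size of the difference depended on which libraries were used.

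Cebpb, a factor of the early phase that also acts in cytokine responses of macrophages, showed the largest fitted decrease of the members. It was at 337, 403 and 252 CPM in CTL and at 287, 186 and 150 CPM in Nelfb-/- cells. Nelfb-/- replicate 2 and Nelfb-/- replicate 3 were below every CTL library, and Nelfb-/- replicate 1 was above CTL replicate 3. The log2 fold change was -0.70 ± 0.29 (SE), with a 95% confidence interval from -1.39 to -0.0016, an unadjusted p of 0.0496 and a limma adjusted p of 0.153 over all genes. Without Nelfb-/- replicate 1 it was -0.96 with a limma adjusted p of 0.0475, which is past the adjusted threshold while the change stayed under 2-fold. Leaving out any other library gave values between -0.88 and -0.49, each with an adjusted p above 0.05. The upper end of the interval was above 0 in limma without the abundance trend (0.06) and without moderation of the variances (0.24).

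Cebpd, the partner of Cebpb in the early phase, varied more between the Nelfb-/- libraries than any other member. It was at 131, 200 and 141 CPM in CTL and at 218, 97.5 and 91.2 CPM in Nelfb-/- cells. Nelfb-/- replicate 1 had the highest value of all 6 libraries and the other Nelfb-/- libraries the lowest values, with a coefficient of variation of 52.6% in Nelfb-/- cells against 23.6% in CTL. The fitted log2 fold change was -0.31 with an SE of 0.36 (adjusted p = 0.593 in limma), with a 95% confidence interval from -1.19 to 0.56. Leaving out Nelfb-/- replicate 1 gave -0.72 (adjusted p = 0.0687 in limma), and leaving out Nelfb-/- replicate 3 gave -0.09 (adjusted p = 0.925).

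Cebpg, the dimer partner, varied least within Nelfb-/- cells. The CTL libraries held 92.2, 102 and 111 CPM and the Nelfb-/- libraries 84.8, 78.8 and 85.5 CPM, so every Nelfb-/- library was below every CTL library. This order was seen for 16.1% of all genes tested, and in 3 against 3 libraries an exact permutation test (two-sided) cannot give a p under 0.1. The fitted log2 fold change was -0.29 with an SE of 0.13 (adjusted p = 0.172 in limma), with a 95% confidence interval from -0.60 to 0.02, and leaving out each library in turn gave values between -0.36 and -0.22. The interval ended below 0 under median-ratio scaling (-0.65 to -0.06), upper quartile scaling (-0.65 to -0.06) and without moderation of the variances (-0.53 to -0.05), with an adjusted p of at least 0.0972 in each of these.

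Cebpz, the ribosome assembly factor, had the closest group means. It was at 56.4, 56.2 and 47.6 CPM in CTL and at 62.2, 50.3 and 50.3 CPM in Nelfb-/- cells. The libraries that stood apart held its lowest and highest values. The fitted log2 fold change was 0.02 with an SE of 0.15 (adjusted p = 0.947 in limma), with a 95% confidence interval from -0.34 to 0.37, and its sign turned to -0.05 under 2 other scalings of the libraries, to -0.06 without CTL replicate 3 and to -0.08 without Nelfb-/- replicate 1.

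**Figure D2:**
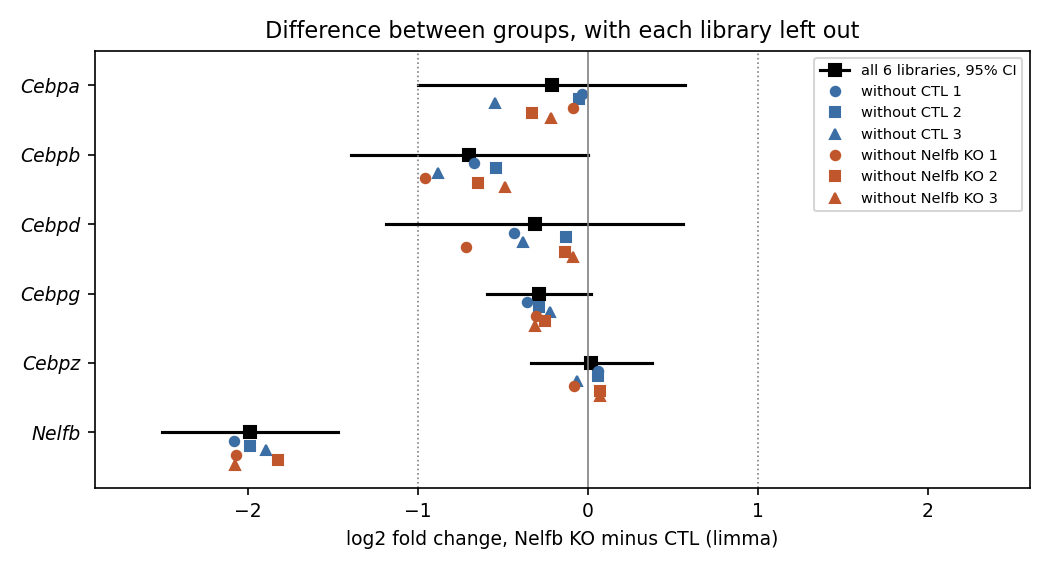
Log2 fold change (Nelfb KO minus CTL, limma) of the 5 C/EBP genes and of Nelfb, with black squares and lines for the value from all 6 libraries and its 95% confidence interval (CI), coloured marks for the value with 1 library left out, and dotted lines at a 2-fold change. The interval of Cebpb ends at -0.0016, those of Cebpa, Cebpd, Cebpg and Cebpz hold 0 in this fit, and that of Nelfb lies between -2.50 and -1.47.

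Counting error was smaller than the spread between cultures. The fewest reads behind a value were 864 for Cebpz, 1353 for Cebpg, 1674 for Cebpd, 3198 for Cebpb and 13492 for Cebpa, and the counting error was at most 3.40% of the value. The spread between cultures of a group was above that, with coefficients of variation from 4.41% for Cebpg in Nelfb-/- cells to 52.6% for Cebpd in Nelfb-/- cells. The error from read numbers leaves out all other sources of technical spread.

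The order of the members was the same in all 6 libraries when the level was given per length of exon (CPM per kb). In CTL, Cebpa was at 351 ± 123 CPM per kb (SD, n = 3), Cebpb at 220 ± 50.5, Cebpd at 42.1 ± 9.93, Cebpg at 18.1 ± 1.70 and Cebpz at 11.5 ± 1.07. In Nelfb-/- cells the levels were 291 ± 48.8 CPM per kb for Cebpa, 138 ± 47.0 for Cebpb, 36.2 ± 19.0 for Cebpd, 14.8 ± 0.651 for Cebpg and 11.6 ± 1.47 for Cebpz. Neighbours in this order were apart beyond the range of the libraries in both groups except Cebpa and Cebpb, whose ranges overlapped in CTL (210 to 427 against 167 to 268 CPM per kb) but not in Nelfb-/- cells. Cebpa ranked between 94 and 245 among the 17517 genes with an exon length, Cebpb between 155 and 448, and Cebpd between 802 and 2025. With the shorter Cebpd gene of RefSeq in place of the GENCODE exon (2.26 against 3.75 kb) its level was 69.8 CPM per kb in CTL and 59.9 in Nelfb-/- cells, which leaves it between Cebpb and Cebpg.

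The summed level of the 5 genes was 1742, 1860 and 1105 CPM in CTL against 1291, 1310 and 1142 CPM in Nelfb-/- cells. Cebpa made up 50.01% to 64.6% of the sum in CTL and 49.6% to 68.5% in Nelfb-/- cells. The balance between members was then compared within each library, where the scaling of the library has no part. The log2 ratio of Cebpb to Cebpa in CPM was -1.74, -1.44 and -1.13 in CTL and -1.16, -2.27 and -2.35 in Nelfb-/- cells. Nelfb-/- replicate 2 and Nelfb-/- replicate 3 thus had less Cebpb for their Cebpa than any CTL library, whereas Nelfb-/- replicate 1 was in the CTL range. The ratio of Cebpd to Cebpa was -3.10, -2.46 and -1.97 in CTL and -1.56, -3.20 and -3.07 in Nelfb-/- cells. Nelfb-/- replicate 1 was above the CTL range, Nelfb-/- replicate 2 was below it, and Nelfb-/- replicate 3 was inside it. The ratio of Cebpb to Cebpd was 1.36, 1.01 and 0.83 in CTL and 0.40, 0.93 and 0.72 in Nelfb-/- cells. For Cebpa against Pparg, which maintain each other in fat cells, the log2 ratio was 2.67 ± 0.32 (SD, n = 3) in CTL and 2.97 ± 0.24 (SD, n = 3) in Nelfb-/- cells. The groups overlapped for each of these 4 ratios.

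**Figure D3:**
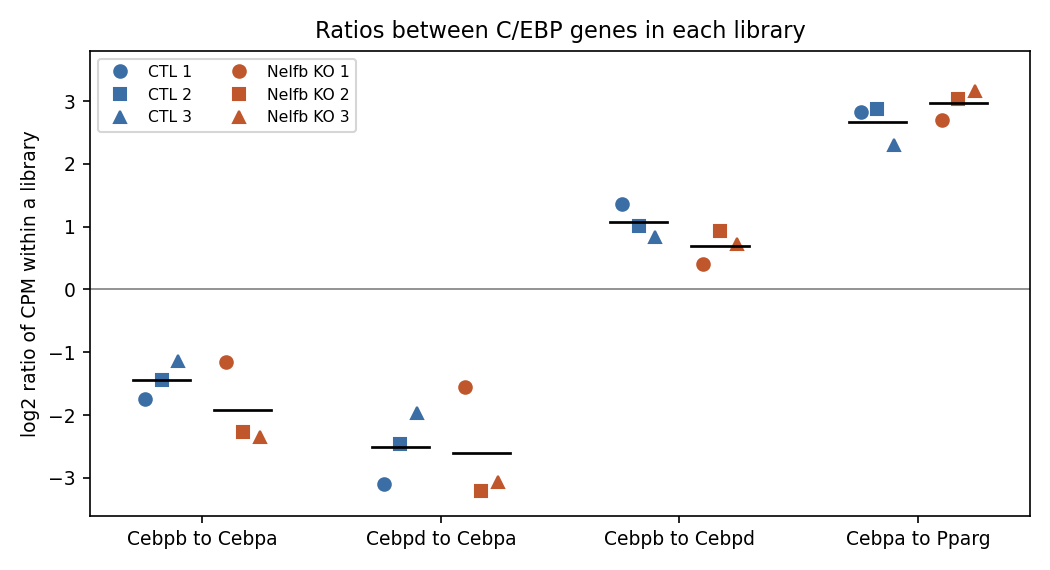
Log2 ratio of CPM between genes within each library for Cebpb to Cebpa, Cebpd to Cebpa, Cebpb to Cebpd and Cebpa to Pparg, with a point for each of the 3 CTL and the 3 Nelfb-/- libraries (Nelfb KO) and a line at each group mean. In the ratios to Cebpa, Nelfb-/- replicate 1 lies at -1.16 and -1.56 while the other Nelfb-/- libraries lie at or below -2.27, and the groups overlap in all 4 ratios.

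Several members share their position with another gene, and the sources used here do not state whether strand was used in counting, so that reads of the overlapping parts cannot be assigned with certainty. Gm45091, an antisense RNA whose span covers the Cebpa start and the window shown above, was at 0.933 to 1.36 CPM in CTL and 0.530 to 0.759 CPM in Nelfb-/- cells (log2 fold change -0.83 ± 0.34, SE, limma adjusted p = 0.152). It was far below Cebpa in every library. Tmem189, the gene of a plasmanylethanolamine desaturase, starts inside the Cebpb exon on the other strand, and the spans share 908 bases. It was at 68.7, 61.2 and 51.3 CPM in CTL and at 149, 82.7 and 84.1 CPM in Nelfb-/- cells (0.75 ± 0.26, SE, limma adjusted p = 0.0997). The Nelfb-/- values of Tmem189 were thus all above the CTL values, the other direction from Cebpb, and its highest value was in Nelfb-/- replicate 1, where Cebpb was also highest among the Nelfb-/- libraries. Spidr, a DNA repair scaffold gene that ends inside the Cebpd exon on the other strand, was at 25.4 to 42.7 CPM in CTL and 17.7 to 20.2 CPM in Nelfb-/- cells (-0.71 ± 0.23, SE, limma adjusted p = 0.0834), with no overlap. Cebpzos, which overlaps the end of Cebpz on the other strand by 1301 bases, was at 8.87 to 13.0 CPM in CTL and 8.77 to 10.5 CPM in Nelfb-/- cells. Ndufaf7, an assembly factor of mitochondrial complex I that starts 70 bases from Cebpz on the other strand, was at 19.5 to 24.8 CPM in CTL and 16.7 to 23.6 CPM in Nelfb-/- cells. The lincRNA A530013C23Rik, which starts 2262 bases from the Cebpb start on the same strand, was at 0.646 to 1.35 CPM in CTL and 0.612 to 0.711 CPM in Nelfb-/- cells. None of these 6 neighbours was called.

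The genes whose levels over the 6 libraries were most like those of each member were found among 11777 genes by Pearson's r on log2 values. Since the 6 points hold both groups and 2 libraries that stand apart, r describes these libraries only. For Cebpa the leading genes were Gmps (r = 0.993), Baz1b (0.988) and Purb (0.983), for Cebpb they included Ptpn21 (0.998) and Trmt1 (0.995), and for Cebpd they were Naf1 (0.985), Zfp639 (0.985) and Pi4k2a (0.983). For Cebpg they were Arl15 (0.995), Adamts7 (0.992) and Gatd1 (0.992), and for Cebpz they were Rif1 (0.997), Plekhm2 (0.997) and Larp4 (0.995). No gene was among the leading 3 of more than 1 member. An r of at least 0.95 was reached by 18 genes for Cebpa, 205 for Cebpb, 41 for Cebpd, 61 for Cebpg and 257 for Cebpz.

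Genes of the C/EBP pathway were then counted in 6 lists, beginning with related bZIP factors, some of which dimerise with C/EBP proteins, and with the Tribbles family and Cop1, of which Trib1 and Trib2 with Cop1 are known to bring Cebpa protein to degradation. Of 15 such genes 14 were tested, and 1 rose and 3 fell, where 7.58% of all genes tested rose and 3.64% fell. The median log2 fold change of the list was -0.68. Trib2 was at 6.72, 8.17 and 22.7 CPM in CTL and at 47.0, 34.4 and 34.0 CPM in Nelfb-/- cells (1.82 ± 0.46, SE, limma adjusted p = 0.0431). All Nelfb-/- libraries were above all CTL libraries, and CTL replicate 3 was the highest of CTL. Trib3 moved the other way, from 60.1, 68.1 and 127 CPM to 28.7, 27.1 and 36.1 CPM (-1.40 ± 0.30, SE, limma adjusted p = 0.0270), as did Hlf, a factor of the PAR bZIP class, from 3.73 to 5.61 CPM in CTL to 0.931 to 1.38 CPM in Nelfb-/- cells (-1.96 ± 0.29, SE, limma adjusted p = 0.0099). Atf5 also fell (-1.05), while Atf4 and Tef passed the adjusted p but not the 2-fold limit (-0.98 and -0.80). The stress factor Ddit3, which forms inactive dimers with C/EBP proteins, was at 60.8 to 143 CPM in CTL and 24.5 to 62.0 CPM in Nelfb-/- cells (-1.22 ± 0.45, SE, limma adjusted p = 0.119), with overlap. Ddit3, Atf4 and Dbp were called lower when Nelfb-/- replicate 1 was left out. The number of calls over all genes depended on the libraries used. Against 1232 genes called higher and 592 called lower with all 6 libraries, 629, 536 and 1704 were called higher and 242, 223 and 776 lower without CTL replicates 1, 2 and 3 in turn, and 1248, 625 and 290 higher and 707, 320 and 136 lower without Nelfb-/- replicates 1, 2 and 3. The counts of this list and of the next ones with a library left out are to be read beside these. Without CTL replicates 1, 2 and 3 in turn, 0, 0 and 1 genes of the list were called higher and 2 each were called lower, and without Nelfb-/- replicates 1, 2 and 3 in turn, 0 were called higher and 5, 1 and 0 lower. Trib2 was still called when CTL replicate 3 was left out but not when any other library was, Trib3 lost its call without CTL replicate 2 and without each Nelfb-/- library, and Hlf lost it without Nelfb-/- replicate 3. Atf5 lost it without CTL replicate 1, CTL replicate 3, Nelfb-/- replicate 2 or Nelfb-/- replicate 3.

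Of 17 upstream regulators of C/EBP genes, 0 rose and 1 fell, with a median of -0.31, where 7.58% of all genes rose and 3.64% fell. The gene that fell was Klf15, a zinc finger factor of adipocytes, at 95.3, 106 and 74.1 CPM in CTL and at 53.5, 28.5 and 24.2 CPM in Nelfb-/- cells (-1.45 ± 0.32, SE, limma adjusted p = 0.0291). Klf15 was no longer called when CTL replicate 1, CTL replicate 2, Nelfb-/- replicate 2 or Nelfb-/- replicate 3 was left out. Crtc1, a coactivator of CREB, the factor that turns on Cebpb early, was at 12.04 to 16.7 CPM in CTL and 20.6 to 23.1 CPM in Nelfb-/- cells (0.64 ± 0.17, SE, limma adjusted p = 0.0531). Pparg was at 158, 150 and 112 CPM in CTL and at 98.5, 110 and 85.2 CPM in Nelfb-/- cells (-0.51 ± 0.18, SE, limma adjusted p = 0.111), with no overlap and no call.

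The adipocyte list held genes that C/EBP factors are known to bind in fat cells. Of 14 tested, 1 rose and 5 fell, with a median of -1.03, where 7.58% of all genes rose and 3.64% fell. Pck1, which makes phosphoenolpyruvate for glycerol synthesis in fat cells, was at 678, 616 and 55.9 CPM in CTL and at 2.94, 4.37 and 2.53 CPM in Nelfb-/- cells (-6.47 ± 0.94, SE, limma adjusted p = 0.0096). Scd1, the stearoyl-CoA desaturase, went from 28091, 26180 and 20552 CPM to 5387, 4948 and 4177 CPM (-2.36 ± 0.47, SE, limma adjusted p = 0.0214). Both were lower in every Nelfb-/- library than in every CTL library. Retn, Slc2a4 and Irs1 fell too (-2.12, -2.02 and -1.03). Lep, the gene of leptin, rose from 0.180, 0.373 and 2.04 CPM to 10.3, 32.4 and 33.0 CPM (5.26 ± 0.88, SE, limma adjusted p = 0.0136). Cidec, a lipid droplet gene, was at 1764 to 3067 CPM in CTL and 1559 to 3700 CPM in Nelfb-/- cells. Leaving out CTL replicate 3 gave 7 genes called lower, and leaving out CTL replicate 1, CTL replicate 2 or Nelfb-/- replicate 2 gave 2. Without Nelfb-/- replicate 3, where 426 of all genes were called in place of 1824, Slc2a4 was the 1 gene of the list called. Lep lost its call without CTL replicate 2, Nelfb-/- replicate 2 or Nelfb-/- replicate 3, Scd1 lost it without these and without CTL replicate 1, and Pck1 lost it without Nelfb-/- replicate 3. Retn and Irs1 lost theirs without CTL replicate 1, CTL replicate 2, Nelfb-/- replicate 2 or Nelfb-/- replicate 3.

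Acute phase and cytokine genes, which Cebpb and Cebpd are known to bind in inflammation, were tested for 15 of the 19 in the list. Of these 8 rose and 1 fell, with a median of 1.93, where 7.58% of all genes rose and 3.64% fell. Il6, Tnf and Cxcl5 had CTL means of 0.042, 0.168 and 0.201 CPM, under the filter level of 0.448 CPM. They were thus tested only because of their Nelfb-/- values, and their rises are in part set by the filter. Cxcl5, a chemokine for neutrophils, was at 0, 0.0933 and 0.510 CPM in CTL and at 10.4, 41.8 and 41.5 CPM in Nelfb-/- cells (limma adjusted p = 0.0079). Il6 was at or under 3 reads in each CTL library and at 0.853, 2.15 and 1.999 CPM in Nelfb-/- cells, at least 13.3-fold higher than the floor of 3 reads per CTL library. Ccl2, Saa3, Orm2, Tnf, Cd14 and Serpina3n rose as well (3.75, 2.50, 2.49, 2.07, 1.93 and 1.84). The complement gene C3 fell, from 1222, 1248 and 768 CPM to 212, 85.9 and 97.3 CPM (-3.12 ± 0.39, SE, limma adjusted p = 0.0064). The number called higher was 6, 4 and 10 without CTL replicates 1, 2 and 3 in turn, and 5, 4 and 3 without Nelfb-/- replicates 1, 2 and 3, beside 290 to 1704 over all genes, and C3, Cxcl5, Il6 and Ccl2 were called each time. Orm2 and Tnf were still called when CTL replicate 3 was left out but not when any other library was, Saa3 lost its call without CTL replicate 2 or any 1 of the Nelfb-/- libraries, Cd14 lost it without CTL replicate 2, Nelfb-/- replicate 2 or Nelfb-/- replicate 3, and Serpina3n lost it without Nelfb-/- replicate 3. Macrophages also express several genes of this list, and the summed level of 12 macrophage markers was 183 to 606 CPM in CTL and 1540 to 4652 CPM in Nelfb-/- cells, with 11 of 12 called higher (2 of 12 without CTL replicate 2 or without Nelfb-/- replicate 3, and 1 of 12 without moderation of the variances) and none at 0 in any library. Their part in the result was not tested.

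**Figure D4:**
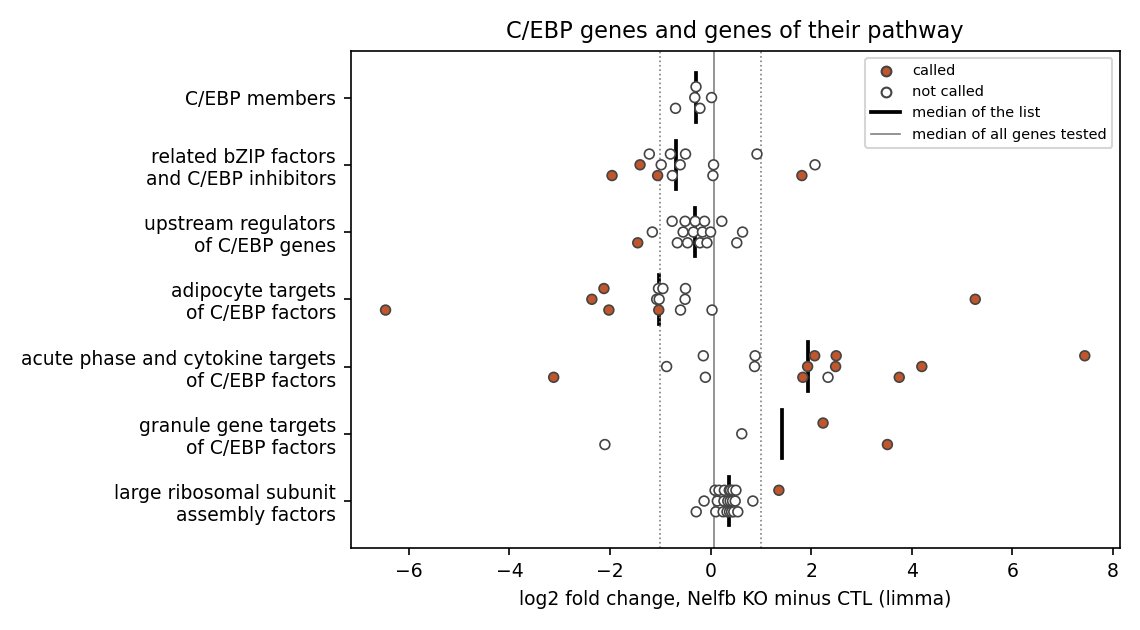
Log2 fold change (Nelfb KO minus CTL, limma) of the C/EBP genes and of the tested genes of 6 lists of their pathway, a circle for each gene, filled where the gene was called, with a black bar at the median of the list, a grey line at the median of all genes and dotted lines at a 2-fold change. No C/EBP gene is filled, and the medians run from -1.03 for adipocyte targets to 1.93 for acute phase and cytokine targets.

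The granule list held genes of myeloid cells that are known targets of C/EBP factors, among them Cebpa and Cebpe. Of 15 in the list 9 had a row and 4 were tested, of which 2 rose and 0 fell, with a median of 1.43. Over all genes tested 7.58% rose and 3.64% fell. Lyz2, a lysozyme gene of macrophages and neutrophils, was at 294, 143 and 69.5 CPM in CTL and at 3038, 911 and 1583 CPM in Nelfb-/- cells (3.52 ± 0.63, SE, limma adjusted p = 0.0162). Its order among the Nelfb-/- libraries was that of the macrophage markers, which were highest in Nelfb-/- replicate 1. Mmp8 was at 0.782 to 1.17 CPM in CTL and 3.14 to 7.59 CPM in Nelfb-/- cells (2.24 ± 0.41, SE, limma adjusted p = 0.0174). Both calls were lost without CTL replicate 2 and without Nelfb-/- replicate 3. Mmp9, not tested with all 6 libraries, was called higher without CTL replicate 3 and without Nelfb-/- replicate 1. Prtn3 was called lower when CTL replicate 3 was left out. The median of the list was 2.42, 2.15 and 2.14 without CTL replicates 1, 2 and 3 in turn, where 7 genes were tested in place of 4. It was 1.02, 1.52 and 1.11 without Nelfb-/- replicates 1, 2 and 3, with 6, 4 and 5 genes tested. With a pseudocount of 1 CPM it was 0.72. The granule genes Camp, Mpo, Mmp9, S100a8 and Chil3 stayed under the filter. Camp and Mpo, at no more than 0.699 and 1.11 CPM in any library, overlapped between the groups. Mmp9, S100a8 and Chil3 were higher in every Nelfb-/- library than in every CTL library, with Mmp9 and Chil3 at 3 reads or less in each CTL library. With the filter at 10 reads in 1 or more libraries, 9 genes were tested and Chil3, Lyz2, Mmp8 and Mmp9 were called higher, beside 1359 of 17812 genes. With no filter the same genes were called.

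A list of ribosome assembly factors, labelled large subunit in the figure and chosen as the functional company of Cebpz, held 1 gene that passed the threshold. Not all of its genes are specific to the large subunit, and Nop56 is among those that are not. Of 24 tested, 1 rose and 0 fell, where 7.58% of all genes tested rose and 3.64% fell. The median was 0.37, and 22 had a difference above 0, as had 8867 of the 16251 genes tested. Nop56, a core protein of box C/D particles, rose from 40.6, 39.1 and 37.3 CPM to 99.2, 99.9 and 101 CPM (1.36 ± 0.11, SE, limma adjusted p = 0.0033), it was called with each library left out, and its replicates lay close together in both groups. Bop1 passed the adjusted p but not the 2-fold limit (0.84 ± 0.16, SE, limma adjusted p = 0.0178). The value for Cebpz (0.02) was below the median of this list.

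Markers of other cells differed between libraries, and their order matched that of the C/EBP genes in some libraries but not in others. Nelfb-/- replicate 1, which had the highest Cebpb and Cebpd of its group, also had the highest sum of macrophage markers, at 4652 CPM against 1540 and 2564 CPM in the other Nelfb-/- libraries. It had the lowest Cebpa of its group, however, and Nelfb-/- replicate 3 had more macrophage marker CPM but less Cebpb than Nelfb-/- replicate 2. Macrophages are known to express Cebpa, Cebpb and Cebpd. CTL replicate 3, which had the lowest Cebpa and Cebpb of CTL, had the lowest sum of macrophage markers, at 183 CPM, and the highest sum of 12 fibroblast markers of CTL, at 17664 CPM against 4621 and 5319 CPM. In CTL the macrophage sum was highest in replicate 1 (606 CPM), which had the lowest Cebpd, while Cebpb and Cebpd were highest in replicate 2 (332 CPM). The sum of 9 adipocyte markers was 41007, 37920 and 26124 CPM in CTL against 18055, 26718 and 22790 CPM in Nelfb-/- cells, and Cebpa was lowest within each group in the library where that sum was lowest. The part of these cells in the C/EBP values was not tested. With all 6 libraries, 0 of the 9 adipocyte markers and 1 of the 12 fibroblast markers (Dlk1, higher) were called, and without CTL replicate 3, 1 adipocyte marker was called lower and 7 fibroblast markers higher. Without Nelfb-/- replicate 1, 3 fibroblast markers were called higher, and without any other library 0 were. Of the other lists, 6 of 6 skeletal muscle markers (4 to 6 with a library left out) and 5 of 6 melanocyte markers (3 to 5, and 1 lower without Nelfb-/- replicate 1) were called higher, where 7.58% of all genes were. Of 4 Schwann cell markers 2 were called higher, with each library left out too, and 1 was called lower, a call lost without CTL replicate 1, CTL replicate 2, Nelfb-/- replicate 2 or Nelfb-/- replicate 3. For keratinocytes 1 of 3 markers was called higher, with 2 called without Nelfb-/- replicate 1 and 0 without any other library, and for neutrophils 1 of 2 tested was called higher, with 0 called without CTL replicate 2 or Nelfb-/- replicate 3. The melanocyte markers Tyrp1, Dct and Mlana and the keratinocyte marker Krt14 were under the filter level of 0.448 CPM in each CTL library. They were thus tested only because of their Nelfb-/- values. Of the 5 endothelial markers and the 1 mast cell marker tested 0 were called with all 6 libraries. The endothelial marker Pecam1 was called higher without CTL replicate 3, with a pseudocount of 5 reads or of 1 CPM, and with the replicate block.

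**Figure D5:**
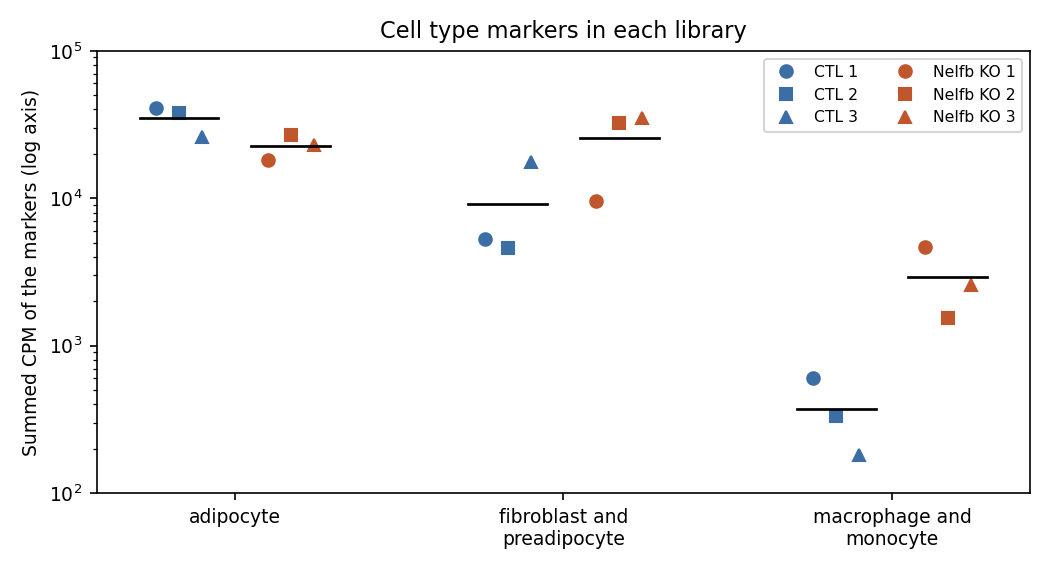
Summed CPM (log axis) of 9 adipocyte, 12 fibroblast and preadipocyte, and 12 macrophage and monocyte markers in each of the 3 CTL and the 3 Nelfb-/- libraries (Nelfb KO), with a line at each group mean. Macrophage markers lie between 183 and 606 CPM in CTL and between 1540 and 4652 CPM in Nelfb-/- cells, highest in replicate 1, and the adipocyte and fibroblast sums overlap between the groups.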

How the data were processed

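RNA-seq libraries of 3 CTL and 3 Nelfb-/- cultures were used. Per the labels, the submitters' processing notes name STAR (2.7) and Partek (9.0.20.0202) with mm10, the methods name DESeq2 for alignment with default settings, and strand use is not given in the sources used here. The deposited values are CPM with an offset of 0.0001, made by the authors, since each column sums to 1000000 without it. Steps of the low values gave the depths, but among values of 20 reads or less 73.0% to 75.5% came out whole within 0.05 reads, so no count test was run. CPM values were multiplied by the geometric mean depth (22.3 M), and the genes tested had to average 10 reads or more (0.448 CPM). The test was limma (3.58.1, in R 4.3.3) on log2(value + 1 read), with a trend in the variance and Benjamini-Hochberg adjustment over all genes. The fold change is on that scale and understates low genes. The script was tested on simulated data. Annotation and sequences were read in Python (3.11.15). GENCODE matched 17517 genes.

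The members and the lists were chosen with earlier results of these data known. Genes named were the members, Nelfb, Pparg, genes that overlap a member or start within 5 kb of it, in each list the 2 called genes with the largest increase and decrease (under 2 called, also the 2 with the smallest p), and the 3 genes most like each member among those at a mean of 5 CPM or more. Of these, 1 gene is not reported here. Other list genes were named after their values were seen. Alternatives were other pseudocounts, filters, scalings and variance models, a replicate block and each library left out.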

Additional observations from a re-analysis of the deposited data

How the results depend on the processing

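The count of C/EBP genes called was 0 under all 17 alternatives, and the differences of Cebpa, Cebpb, Cebpd and Cebpg kept their sign under each of 16, those of Cebpz excepted: it was -0.0464 with median-ratio scaling, -0.0505 with upper quartile scaling, -0.0612 without CTL replicate 3 and -0.0829 without Nelfb-/- replicate 1. Without each library in turn, log2 fold changes lay between -0.55 and -0.03 for Cebpa, -0.96 and -0.49 for Cebpb, -0.72 and -0.09 for Cebpd, -0.36 and -0.22 for Cebpg, and -0.0829 and 0.0702 for Cebpz. Cebpzos turned to 0.0494 without CTL replicate 3. The number of all genes called was 1824, 684 without moderation of the variances, and 426 to 2480 without 1 library (426 without Nelfb-/- replicate 3). Without moderation, calls in the lists were Hlf for related factors, 0 for upstream regulators, Scd1 and Slc2a4 for adipocyte targets, Ccl2, Il6, Serpina3n, Tnf and C3 for acute phase genes, 0 for granule genes, Nop56 for ribosome assembly and Csf1r for macrophages. The median of the acute phase list was 1.32 with a pseudocount of 1 CPM, and that of the ribosome assembly list 0.31 and 0.30 with median-ratio and upper quartile scaling. In limma without the abundance trend Trib2, Irs1 and Saa3 lost their calls, and Tnf lost its call with a pseudocount of 1 CPM. Atf4 was called lower with median-ratio and upper quartile scaling, and Cxcl1 was called higher with the replicate block. With the RefSeq length, chosen after the data were seen, Cebpd was at 69.8 and 59.9 CPM per kb. The counts without CTL replicate 3 or Nelfb-/- replicate 1 in the lists were added then too.

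Deviations of same-numbered libraries had r of 0.52, -0.39 and 0.52 for numbers 1, 2 and 3, and CTL replicate 3 with Nelfb-/- replicate 2 had 0.54, so the numbers were not taken as pairs. With a replicate block 2175 genes and 0 C/EBP genes were called, with a limma adjusted p of 0.091 for Cebpb. Each C/EBP value rests on 864 reads or more.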
